A study of Nematostella vectensis with 33 samples.

Results

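The genes described here are 43 genes of the starlet sea anemone Nematostella vectensis whose transcripts rose strongly in polyps given 2'3'-cGAMP. In polyps given c-di-AMP their log2 difference from untreated polyps was below 0.5, with no lower bound set. They were chosen by the measured values, from 22999 genes listed in any of 3 tables, 20483 of them in all 3. A member had a mean log2(value + 1) at least 4.5 higher with 2'3'-cGAMP than in untreated polyps, at least 100 normalised counts in both 2'3'-cGAMP polyp libraries, and a difference below 0.5 between c-di-AMP and untreated polyps. It also had a mean at least 2 higher with 2'3'-cGAMP over the embryos of the STING experiment, and a difference below 0.8 in either direction between NF-kB and GFP short hairpin RNAs (shRNAs) in treated embryos. Of 410 genes that passed the thresholds on 2'3'-cGAMP polyps, 111 also stayed below the c-di-AMP threshold, 70 of those passed the embryo threshold and 43 passed the NF-kB threshold. A further 198 genes met every other condition but reached 0.5 with c-di-AMP, and they serve as the comparison set.

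Polyadenylated RNA was sequenced from whole polyps and whole embryos in 33 libraries. Polyps were left untreated or were given c-di-AMP, c-di-GMP, 3'3'-cGAMP or 2'3'-cGAMP at 500 µM for 24 h, with 2 libraries per group. Embryos of the STING experiment had been microinjected with a GFP shRNA, the control, or with STING shRNA 1 or STING shRNA 2, and were left untreated or given 2'3'-cGAMP at 100 µM for 4 h, with 2 libraries per group. Embryos of the NF-kB and STAT experiment carried the GFP shRNA (3 libraries) or 1 of 2 hairpins each against NF-kB (NFkB shRNA 1 and 2) and STAT (STAT shRNA 1 and 2), with 2 libraries per hairpin. Every group of that experiment was exposed to 2'3'-cGAMP (100 µM, 4 h), so it had no untreated embryos. The labels give no age, and nothing in them ties replicate libraries to different animals or cultures, so a p-value reflects the spread among these libraries alone, which may be technical. The transcripts targeted by the shRNAs were not analysed here, since no gene name in the tables or the reference identifies them, and their depletion is therefore not checked.

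Cyclic dinucleotides are second messengers. Bacteria make c-di-AMP, c-di-GMP and 3'3'-cGAMP, in which both phosphodiester bonds join the 3' and 5' positions of the sugars, whereas 2'3'-cGAMP, made in mammals by the DNA sensor cGAS, carries a bond from a 2' position in place of one of them. The receptor STING binds these molecules, and in mammals it drives interferon and NF-kB dependent transcription, with STAT factors acting downstream of interferon receptors. Sea anemones have STING, NF-kB and STAT genes but no known interferon. The reference lists 37 of the 43 genes, all under placeholder symbols with the prefix LOC, and gives no product for any of them. The remaining 6 are named by their NCBI Gene number, and no role is given for any member. No sequence is shown for the same reason.

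The deposited values are normalised counts on a scale set by the authors. They are not divided by transcript length, so a larger value in one gene than in another does not show more transcripts. Library totals were 9556248 to 10547485 normalised counts in polyps except for 22340688 and 22363394 with 2'3'-cGAMP, 20525302 to 29281573 for embryos in the STING experiment, and between 17509168 and 20567087 for those of the NF-kB and STAT experiment. Depth in reads was not recovered from these values. In the STING experiment GFP shRNA untreated library 1 listed 21.6% of genes at 0 and GFP shRNA 2'3'-cGAMP library 4 listed 14.4%, against 3.99 to 11.3% in the other 10 libraries. The first of them listed 7 members at 0. Because polyps and embryos are whole animals, fewer cells of a type and less RNA per cell cannot be told apart in any comparison.

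With 2'3'-cGAMP the 43 genes took up a far larger share of the polyp libraries than without it. LOC5518667 had 1927 and 720 normalised counts in the untreated libraries and 100108 and 102560 with 2'3'-cGAMP. LOC5513609 went from 962 and 1015 to 86106 and 71183, and LOC5514171 from 2039 and 2383 to 61033 and 59648. No library of another compound came near these levels: LOC5518667 had 1275 and 1251 normalised counts after c-di-AMP, 440 and 526 after c-di-GMP and 886 and 2730 after 3'3'-cGAMP. LOC5513609 had 1450 and 1100, 1062 and 1026, and 1274 and 954 in the same order, and LOC5514171 had 3489 and 2758, 3461 and 2760, and 2809 and 2211. LOC5518667, LOC5513609 and LOC5514171 held 48.3% of the members' summed counts in 2'3'-cGAMP polyps. All 43 genes together made up 0.0991% and 0.0962% of the untreated libraries' totals and 2.27% and 2.18% of the totals with 2'3'-cGAMP, against 0.0874 to 0.129% in the 6 libraries of the other compounds.

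The largest change among the members was that of LOC5502446, with 34.8 and 25.7 normalised counts untreated and 7765 and 9699 with 2'3'-cGAMP, a log2 difference of 8.13. LOC116602083 followed with 38.2 and 56.6 against 12402 and 13206 (8.07), and LOC5520446 with 16.1 and 16.8 against 4024 and 3825 (7.81). With the other compounds LOC5502446 had 29.1 to 61.4 normalised counts, LOC116602083 had 40.9 to 62.6 and LOC5520446 had 6.27 to 41.7, each in 6 libraries and each overlapping or close to its untreated libraries.

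LOC5519661 had 182 and 190 normalised counts untreated, 337 and 189 after c-di-AMP, 233 and 222 after c-di-GMP, 211 and 163 with 3'3'-cGAMP and 28401 and 31322 with 2'3'-cGAMP, a log2 difference of 7.32 from untreated. LOC5511776 had 1437 and 1113 untreated, 1170 and 1258 after c-di-AMP, 817 and 760 after c-di-GMP, 1125 and 2433 with 3'3'-cGAMP and 48707 and 39414 with 2'3'-cGAMP, a difference of 5.11. Both were high in the 2'3'-cGAMP libraries, and LOC5511776 was also above both of its untreated libraries in 3'3'-cGAMP library 2. Across the members the difference ran from 4.56 to 8.13 with a median of 5.19, and 15 members reached 6. These values chose the members, so they carry no test. In each of the 43 genes both 2'3'-cGAMP libraries lay above the other 8 polyp libraries, as 31.6% of all tested genes did, and 28.5% of tested genes were called higher than untreated.

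The genes started from very different levels. Untreated means ran from 3.43 normalised counts in NCBI Gene 116605665 to 2211 in LOC5514171, with a median of 63.5. They were below 20 in 11 members and above 500 in 5. The 2'3'-cGAMP replicates of a gene lay within 0.5 of each other on the log2 scale in 41 of the 43 genes, and the median gap was 0.14. The larger totals of the 2'3'-cGAMP libraries bear on the size of the change. With all polyp library totals made equal, the members' differences ran from 3.41 to 6.99 with a median of 4.04, while the median of all genes moved to -1.21.

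**Figure D1:**
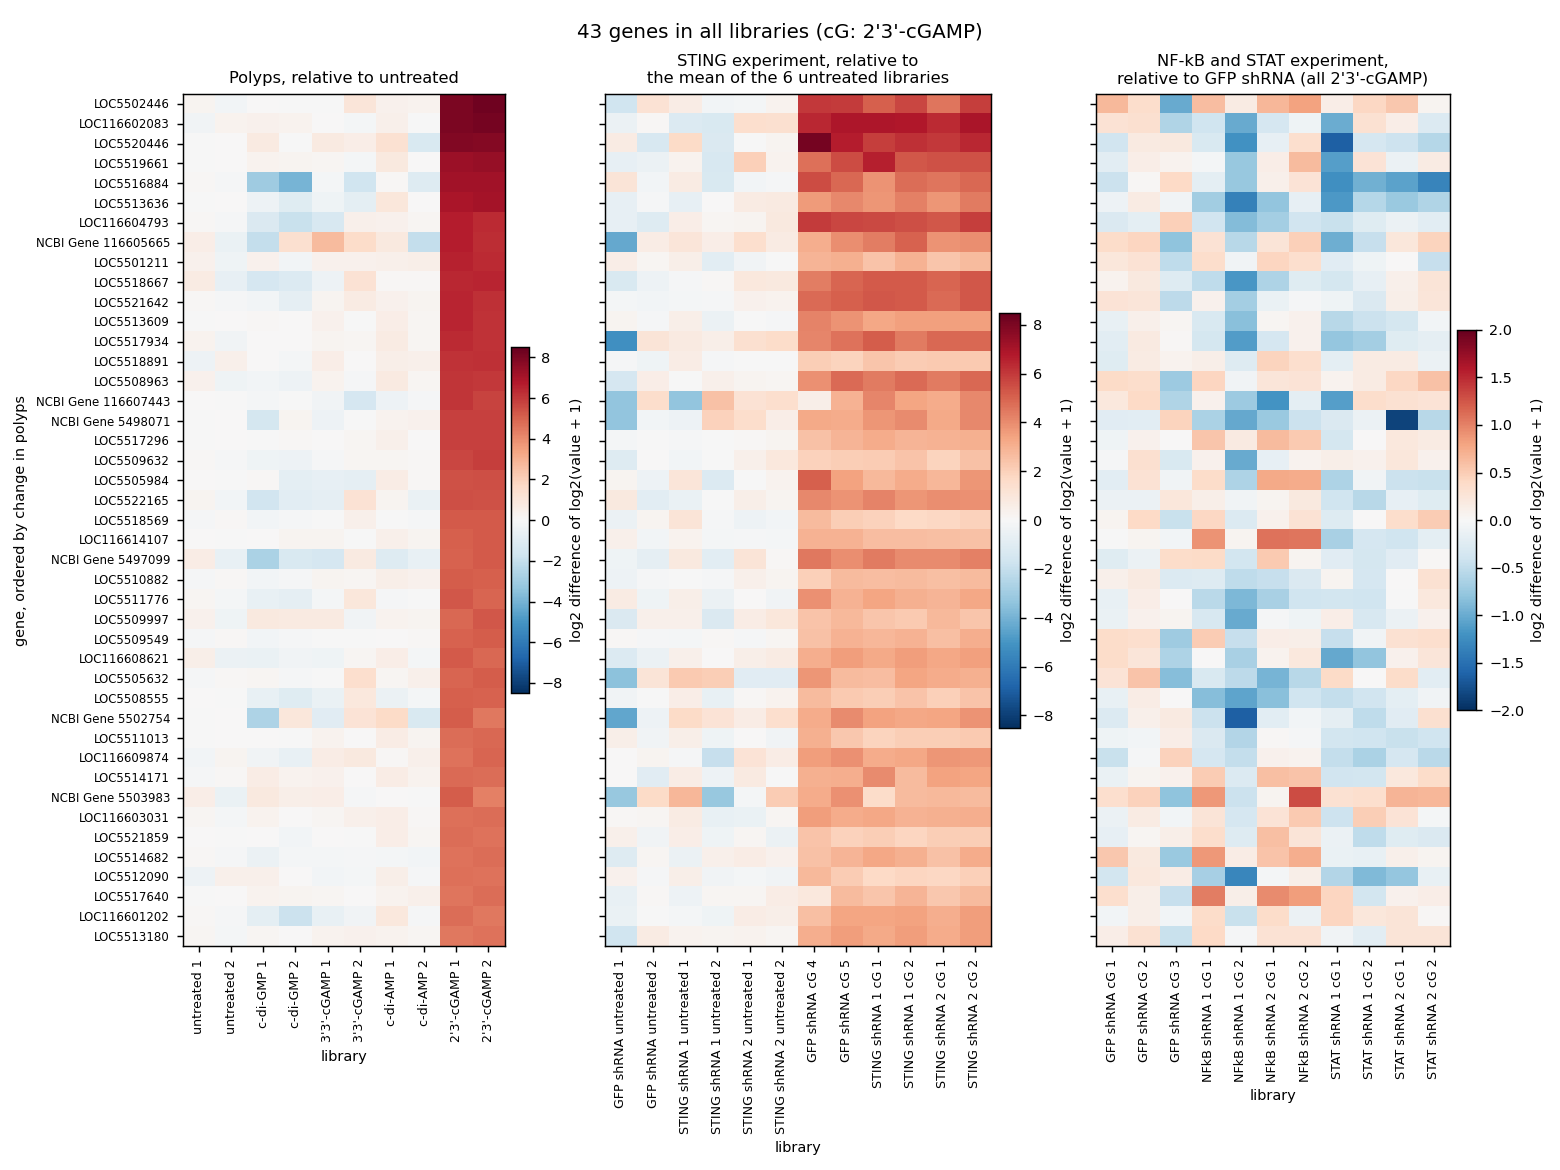
Log2(value + 1) of the 43 genes (rows, ordered by their change in polyps) in all 33 libraries (columns), as the difference from the mean of the untreated libraries in polyps and in the STING experiment and from the mean of the 3 GFP shRNA libraries in the NF-kB and STAT experiment, whose colour scale is narrower. Red is higher and blue lower: the 2'3'-cGAMP columns are red in polyps and embryos, and the other compounds' columns stay pale for most genes.

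Genes just outside most thresholds had nearly the values of the members just inside. LOC5513180 was just inside the threshold for the change in polyps at 4.56, and LOC116617229 just outside at 4.496. For c-di-AMP, LOC5514171 lay inside at 0.49 and NCBI Gene 5508463 outside at 0.50. For embryos, LOC5518569 lay inside at 2.02 and LOC5511030 outside at 1.98. For NF-kB, LOC5508555 lay inside at -0.79 and LOC5504956 outside at -0.82. The threshold on the level left a gap, with NCBI Gene 5502754 inside at 138 normalised counts in its lower 2'3'-cGAMP library and NCBI Gene 5497652 outside at 41.7.

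With c-di-AMP the members were not all at the untreated level. Their differences from untreated ran from -0.85 in NCBI Gene 5497099 to 0.49 in LOC5514171, with a median of 0.26 against 0.025 over all tested genes. Of the 43 genes 34 lay above 0, and 10 lay between 0.4 and the threshold of 0.5. LOC5513609 had 1450 and 1100 normalised counts with c-di-AMP, both above its untreated libraries, while LOC5520446 had 41.7 and 6.27, on either side of them. These values chose the members, and the threshold itself removed the larger differences. A 95% interval reached 0.63 to either side for the median member, wider than the threshold, so the data do not show that c-di-AMP left these genes unmoved. The median of the comparison set was 1.19, which its own threshold fixed.

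The other compounds were given at the same dose and for the same time. When 3'3'-cGAMP was compared with c-di-GMP, groups whose libraries did not enter the choice of members, limma called 0 of the 43 genes. Of all tested genes 0.0756% were called, 0.0702% with the higher and 0.0054% with the lower value in 3'3'-cGAMP. An unadjusted p below 0.05 was found for 13 of the 43 members, against 5.85% of all tested genes in either direction. All 13 members had the higher value in 3'3'-cGAMP. The difference was above 0 in 33 members, with a median of 0.33 against 0.011 over all tested genes, a range from -0.76 to 2.55 and a 95% interval of 0.63 to either side for the median member. Both 3'3'-cGAMP libraries lay above both c-di-GMP libraries in 18 members (19.1% of all tested genes) and below them in 5 (18.6%). In the comparison set 12 of 198 genes were called higher and 172 were above 0, with a median of 0.56. Every one of the 13 genes called higher over the whole table was outside the 43.

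LOC5521642 had 155 and 212 normalised counts with 3'3'-cGAMP and 113 and 76.6 with c-di-GMP, against 140 and 123 untreated. Its 3'3'-cGAMP libraries were the higher ones, with a log2 difference of 0.95 (0.48 to 1.42 as the 95% interval; limma's adjusted p = 0.363). LOC5516884 had 12.9 and 3.72 with 3'3'-cGAMP and 0.911 and 0 with c-di-GMP, against 15.3 and 13.3 untreated, 15.4 and 6.27 with c-di-AMP and 2134 and 2128 with 2'3'-cGAMP. It was thus lowest with c-di-GMP, with a log2 difference of -3.46 from untreated (95% interval -4.83 to -2.10, adjusted p = 0.337 by limma), a size that depends on the pseudocount of 1 because a library is listed at 0.

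Against untreated polyps, whose libraries the choice of members also used, limma called 0 members with 3'3'-cGAMP (0 at an unadjusted p below 0.05, against 4.32% of all tested genes), where 0.054% of all tested genes were called. With c-di-GMP it called 0 members and 0.0% of all tested genes, and 12 members and 10.1% of all tested genes had an unadjusted p below 0.05. The members' median difference was 0.16 with 3'3'-cGAMP, where 29 genes were above 0, and -0.14 with c-di-GMP, where 17 were. The comparison set had medians of 0.54 and 0.0065, and all tested genes 0.0040 and -0.0009. With c-di-GMP both libraries lay below both untreated ones in 16 members (23.2% of all tested genes) and above them in 6 (23.1%). With 3'3'-cGAMP the counts were 7 above (17.5%) and 7 below (14.1%). The members that were lower with c-di-GMP at the smallest unadjusted p after LOC5516884 were LOC116601202, with 61.1 and 29.7 against 116 and 103 (log2 difference -1.34), and LOC116604793, with 15.5 and 9.6 against 40.8 and 36.3 (-1.58). Their adjusted p was 0.372 and 0.378 by limma.

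The 3'3'-cGAMP replicates did not behave alike in the members. In 9 of the 43 genes (20.9%) library 2 was at least 2-fold above library 1, as in 7.04% of all tested genes and 3 of 198 genes (1.52%) in the comparison set, and in 4 members it was at least 2-fold below, as in 928 of 18511 tested genes and 18 of 198 in the comparison set. These 9 genes were picked after their values were seen, so they carry no test. They are LOC5518667, LOC5511776, LOC5522165, LOC116604793, LOC5508555, LOC5502446, LOC5505632, NCBI Gene 5497099 and NCBI Gene 5502754. LOC5518667 had 886 and 2730 normalised counts, LOC5522165 had 35.8 and 151, and LOC116604793 had 14.6 and 53.0. The untreated libraries of LOC5518667 and NCBI Gene 5497099 were also apart by more than 2-fold, at 1927 and 720 and at 90.01 and 38.1 normalised counts, with library 1 the higher one.

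The log2 difference of 3'3'-cGAMP from c-di-GMP had a median of 1.07 in those 9 genes, all above 0, and a median of 0.16 in the other 34 members, with 24 above 0. Without 3'3'-cGAMP library 1, limma called 5 members higher than with c-di-GMP and 110 of 18428 tested genes. The remaining library is then assumed to vary like the other groups. These 5, LOC5508555, LOC5511776, LOC5518667, LOC5522165 and LOC116604793, are among the 9 genes, which leaving out the lower library raises by construction. Library 1 and library 2 of 3'3'-cGAMP listed 3.81% and 5.77% of genes at 0, and what sets them apart was not tested.

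**Figure D2:**
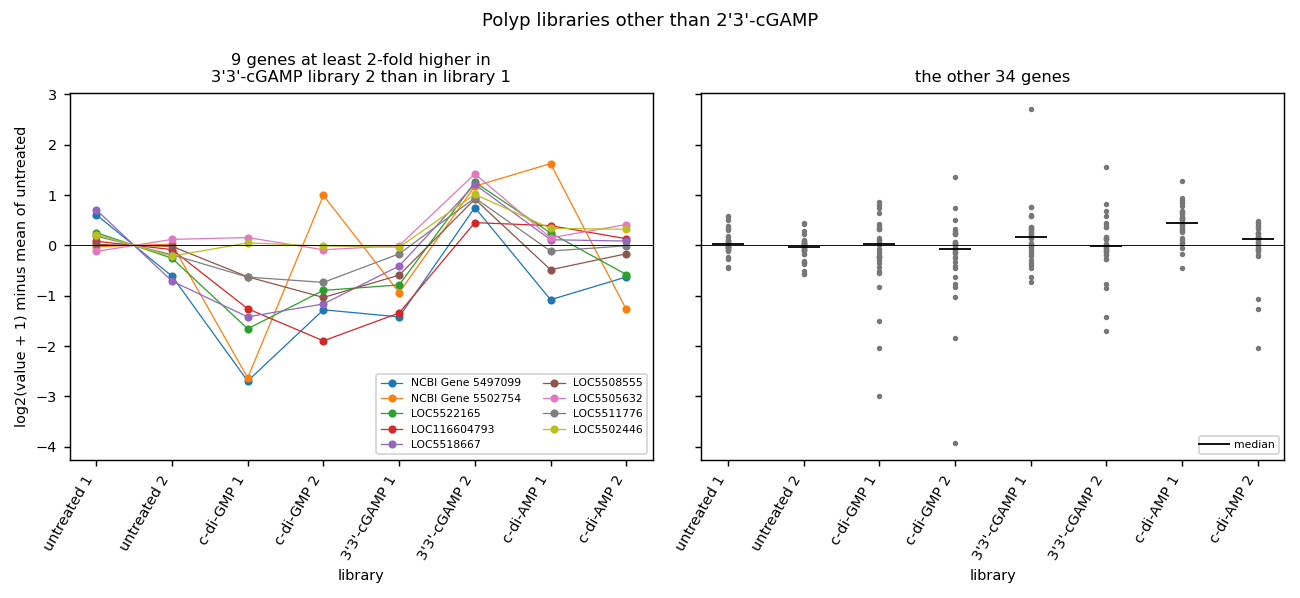
Log2(value + 1) minus the mean of the untreated libraries in the 8 polyp libraries without 2'3'-cGAMP, on the left for the 9 genes at least 2-fold higher in 3'3'-cGAMP library 2 than in library 1 (a line joins the values of a gene) and on the right for the other 34 genes (points) with their median (bar). Most of the 9 genes dip with c-di-GMP and are high in 3'3'-cGAMP library 2 (NCBI Gene 5502754 is highest in c-di-AMP library 1), while the medians on the right stay near 0.

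Embryos given 2'3'-cGAMP at a lower dose and for a shorter time also had higher values of these genes, as the choice of members required. LOC116602083 had 34.8 and 52.8 normalised counts in untreated GFP shRNA embryos and 4135 and 5685 with 2'3'-cGAMP. LOC5520446 had 142 and 33.7 against 24992 and 8698, and LOC5502446 had 7.005 and 62.0 against 1694 and 1637. With STING shRNAs LOC116602083 had 18.9 to 132 untreated and 4082 to 6021 treated, LOC5520446 had 35.8 to 273 and 5201 to 7518, and LOC5502446 had 21.1 to 39.4 and 619 to 1522. Treated and untreated libraries were thus far apart with every shRNA. Over all 3 shRNAs the log2 difference was 6.70 for LOC116602083, 6.55 for LOC5520446, 5.66 for LOC116604793, 5.52 for LOC5502446 and 5.50 for LOC5519661. It ran down to 2.02 in LOC5518569, with a median of 3.28, and 12 members reached 4. All 6 treated libraries lay above all 6 untreated ones in 41 members, as in 7.96% of all tested genes, where 10.1% were called higher. The exceptions were NCBI Gene 116607443 and NCBI Gene 5503983, each listed at 0 in 2 of the untreated libraries.

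The change was larger in polyps than in embryos in all 43 genes on the deposited scales. The choice of members favoured this direction, because it required at least 4.5 in polyps and only 2 in embryos. Dose, time, stage, RNA extraction and library kit all differed between them, and the tables were normalised separately, so the values stand side by side without a test. Across the 43 genes, which are not independent replicates, the 2 changes had a Pearson's r of 0.78 and a Spearman's rho of 0.64, as a description within the thresholds that cut off both. LOC116602083, LOC5520446, LOC5502446, LOC5519661 and LOC5516884 were high on both. LOC5501211 and LOC5518891 had changes of 6.44 and 6.18 in polyps but 2.72 and 2.16 in embryos. LOC5513180 had the smallest change in polyps, 4.56, and 3.36 in embryos.

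**Figure D3:**
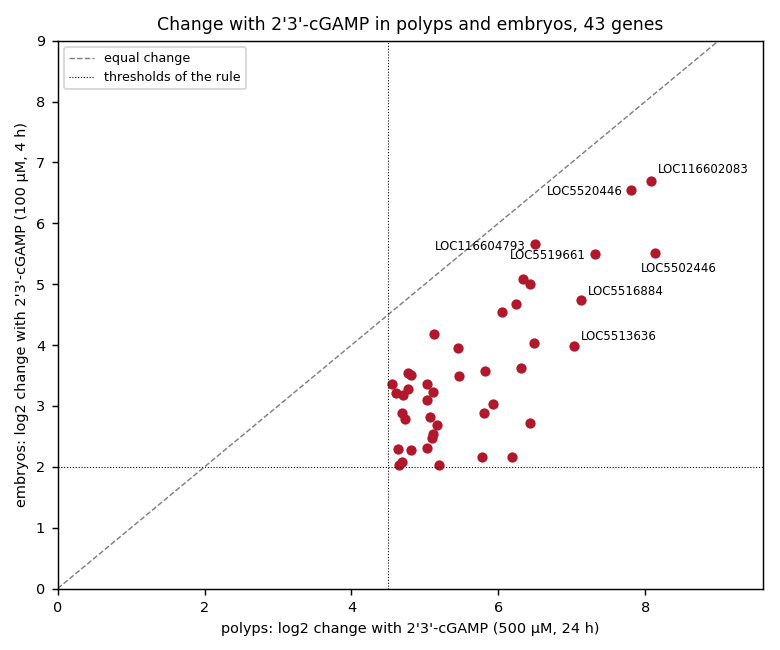
Log2 change with 2'3'-cGAMP of the 43 genes in polyps (horizontal axis) and over the embryos of the STING experiment (vertical axis), with the thresholds of the choice (dotted) and the line of equal change (dashed). All 43 points lie below the dashed line, a side that the higher threshold for polyps favours, and LOC116602083 and LOC5520446 lie far up on both axes.

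In embryos given 2'3'-cGAMP the members lay on both sides of the GFP shRNA level with STING shRNAs, and none passed the test. LOC5518667 had 34046 and 50550 normalised counts with the GFP shRNA, 61039 and 59826 with STING shRNA 1 and 50505 and 63464 with STING shRNA 2. LOC5512090 had 2480 and 1601 with the GFP shRNA and 1142 to 1467 in the 4 STING shRNA libraries. The groups overlapped for LOC5518667 and did not for LOC5512090, whose log2 difference was -0.65 with a 95% interval from -1.29 to -0.013 (limma's adjusted p = 0.561). Among the 43 genes 0 were called by limma between STING and GFP shRNAs in 2'3'-cGAMP (1 at an unadjusted p below 0.05), and 0.0% of all tested genes (1616 at an unadjusted p below 0.05). The members' median difference was -0.010, with 21 above 0, and the median member's interval reached 0.84 to either side. All 4 STING shRNA libraries lay above both GFP shRNA libraries in 4 members (12.6% of all tested genes) and below them in 9 (10.6%). The choice of members used the mean effect of treatment over all shRNAs, which does not fix a difference between shRNAs.

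In untreated embryos 33 of the 43 genes had a higher mean with STING shRNAs than with the GFP shRNA, and no member passed the test. LOC116608621 had 116 and 182 normalised counts with the GFP shRNA, 359 and 273 with STING shRNA 1 and 369 and 424 with STING shRNA 2. LOC116604793 had 27.7 and 21.4 with the GFP shRNA and 67.6, 51.7, 54.9 and 83.4 in the STING shRNA libraries. LOC5518667 had 675 and 1225 against 1502, 1791, 2984 and 2861. In each of these 3 genes all 4 STING shRNA libraries were above both GFP shRNA libraries. Their log2 differences were 1.27 (95% interval 0.70 to 1.85), 1.34 (0.67 to 2.01) and 1.27 (0.61 to 1.92), each with an adjusted p of 0.665 by limma.

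Limma called 0 of the 43 genes in untreated embryos and 0.00479% of all tested genes. An unadjusted p below 0.05 was found for 8 of the 43, against 6.58% of all tested genes. The difference was above 0 in 33 members with a median of 0.39, against 0.076 over all tested genes and 0.47 in the comparison set, where 152 of 198 were above 0. The 4 STING shRNA libraries lay above both GFP shRNA libraries in 5 members (5.47% of all tested genes) and below them in 0 (3.88%). GFP shRNA untreated library 1, with 21.6% of genes at 0, is 1 of the 2 controls here, and its part in the result is seen in the values without it. NCBI Gene 5502754 was listed at 0 there against 15.4 in library 2 and 33.5 to 66.2 with STING shRNAs, and LOC5517934 was listed at 0 against 77.5 and 51.2 to 106. Relative to the median of all genes the members' median was 0.31 with all libraries and 0.185 without that one. Without GFP shRNA untreated library 2, which leaves library 1 as the only control, assumed to vary like the other groups, limma called 10 members and 1462 of 20808 tested genes higher. With STING shRNA 1 alone the members' median difference was 0.13 (all tested genes 0.044), and with STING shRNA 2 alone it was 0.63 (0.12).

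The choice of members required a mean rise over all 3 shRNAs, so the level of the response is a description. The members' median log2 response was 3.81 with the GFP shRNA (range 2.04 to 7.71), 3.15 with STING shRNA 1 (0.84 in LOC5505632 to 8.08) and 2.84 with STING shRNA 2 (1.55 to 6.10). With the mean of both STING hairpins it was 3.14, with a range from 1.77 to 6.66.

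The response was smaller with STING shRNAs than with the GFP shRNA in 38 of the 43 genes, against 10943 of 20879 tested genes. The difference in response was above 0 in only 36 of the 198 genes of the comparison set. Its median was -0.41 in the members, -0.030 over all tested genes and -0.42 in the comparison set. Limma, testing the interaction of shRNA and treatment, called 0 members (3 at an unadjusted p below 0.05) and 0.0% of all tested genes (311 at an unadjusted p below 0.05). The differences with the smallest unadjusted p were -1.57 for LOC116604793 (95% interval -2.51 to -0.62), whose response was 6.70 with the GFP and 5.13 with STING shRNAs, and -1.21 for LOC116608621 (-2.02 to -0.39), with responses of 4.17 and 2.96. Both had an adjusted p of 1.00 by limma, and in both the untreated values with STING shRNAs were the higher ones, by 1.34 and 1.27. The response was smaller in 29 members with STING shRNA 1 and in 35 with STING shRNA 2.

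The size of this difference moved with single untreated libraries. The median was -0.26 without STING shRNA 1 untreated library 1 and -0.65 without STING shRNA 1 untreated library 2. In the 7 members listed at 0 in GFP shRNA untreated library 1 the median difference was -2.10, and in the other 36 it was -0.36, with 32 smaller. Without that library the response was smaller in 24 of 43 genes and in 9654 of 20879 tested genes. The median difference was then -0.076, against 0.063 over all tested genes. Without GFP shRNA untreated library 2 instead, limma called 5 members and 655 of 20808 tested genes with a smaller response, again with a control of 1 library. The median member's interval reached 1.19 to either side for the interaction, so differences of 2-fold could not be resolved for most members.

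**Figure D4:**
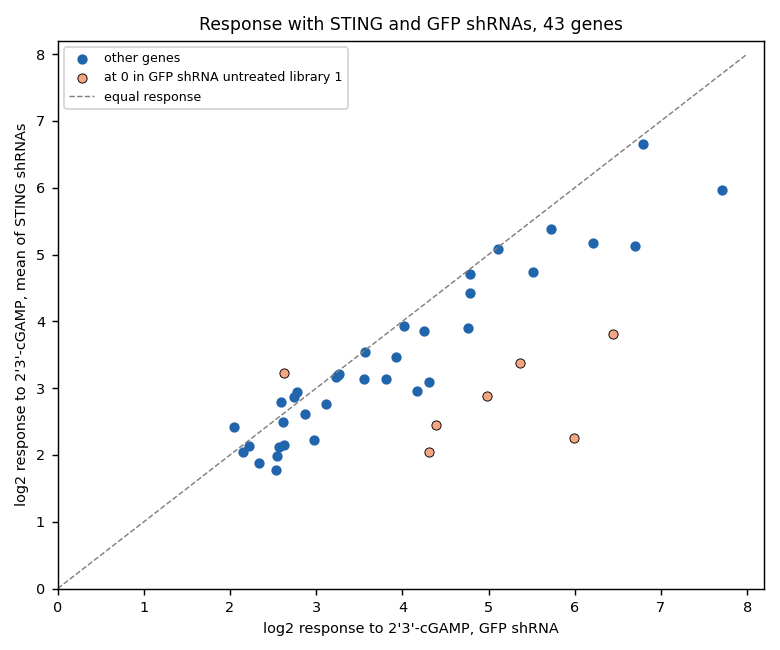
Log2 response to 2'3'-cGAMP of the 43 genes in GFP shRNA embryos (horizontal axis) and in embryos with STING shRNAs (vertical axis, mean of both hairpins), with the line of equal response dashed. Most points lie just below the line, and 6 of the 7 genes listed at 0 in GFP shRNA untreated library 1 (orange) lie furthest below it.

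The members' place between the NF-kB bounds was fixed by the choice, and within the bounds they spread over nearly the whole width. The difference between NFkB and GFP shRNAs ran from -0.79 in LOC5508555 to 0.78 in LOC116614107, with a median of -0.092 and 20 of 43 above 0. The hairpins did not give the same picture. With NFkB shRNA 1 the median was -0.32 and 28 members were below the GFP shRNA, and 6 lay beyond 0.8 in either direction. With NFkB shRNA 2 the median was 0.12, 27 members were above, and 2 lay beyond 0.8. Of these, LOC5513636 had differences of -1.02 with hairpin 1 and -0.48 with hairpin 2, and LOC116614107 had 0.48 and 1.08.

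With STAT shRNAs 29 of the 43 genes had a mean below that with the GFP shRNA, and no member passed the test. LOC5516884 had 1895, 2591 and 3336 normalised counts with the GFP shRNA, 1086 and 1308 with STAT shRNA 1 and 1212 and 1015 with STAT shRNA 2. All 4 STAT shRNA libraries were below the 3 control libraries, with a log2 difference of -1.14 (-1.55 to -0.73 as the 95% interval; limma's adjusted p = 0.218). LOC5513636 had 4907, 5876 and 4994 with the GFP shRNA and 2363 to 3543 with STAT shRNAs, a difference of -0.76 (-1.19 to -0.34, adjusted p = 0.645), again without overlap. Limma called 0 of the 43 genes and 0.00499% of all tested genes. An unadjusted p below 0.05 was found for 9 of the 43, all lower, against 5.38% of all tested genes in either direction. The groups did not overlap in 5 members, all lower with STAT shRNAs (3.21% of all tested genes), and in 0 that were higher (2.88%). The other 3 were LOC5522165, LOC116614107 and LOC5511013.

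The members' median difference between STAT and GFP shRNAs was -0.14, with 14 above 0, against 0.0030 over all tested genes and -0.20 in the comparison set, where 52 of 198 were above 0. It differed between hairpins. With STAT shRNA 1 the median was -0.31 and 35 members were below the control, whereas with STAT shRNA 2 it was 0.052 and 19 were. With both hairpins 19 members were below. LOC5516884 was low with each, at -1.09 and -1.19. Without GFP shRNA library 1 it was called (log2 difference -1.35, adjusted p = 0.0313 by limma). The 3 control libraries are among the values that chose the members.

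Set against NFkB shRNAs, STAT shRNAs gave lower values of LOC116614107 and LOC5516884. LOC116614107 had 34881 and 19441 normalised counts with NFkB shRNA 1, 39735 and 39090 with NFkB shRNA 2, 11900 and 14815 with STAT shRNA 1, 14201 and 16349 with STAT shRNA 2, and 18664, 19457 and 17994 with the GFP shRNA. Every STAT shRNA library was below the control and every NFkB shRNA library but 1 was well above it. The log2 difference between STAT and NFkB shRNAs was -1.17, with a 95% interval from -1.55 to -0.79 (limma's adjusted p = 0.00263). NFkB shRNA values entered the choice of members, so this p-value is not independent of the choice. Relative to the GFP shRNA, LOC116614107 was at 0.777 with NFkB shRNAs, near the upper bound, and at -0.394 with STAT shRNAs.

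LOC5516884 had 2221 and 1507 normalised counts with NFkB shRNA 1 and 2735 and 3070 with NFkB shRNA 2, all above the STAT shRNA libraries given above. The log2 difference was -1.001, with a 95% interval from -1.38 to -0.62 (limma's adjusted p = 0.00769). Its NFkB shRNA libraries overlapped those with the GFP shRNA, unlike those of LOC116614107 with NFkB shRNA 2. Relative to the GFP shRNA, LOC5516884 was at -0.14 with NFkB shRNAs, a value that the choice used, and at -1.14 with STAT shRNAs. With STAT shRNA 1 alone the adjusted p for LOC5516884 was 0.0653.

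**Figure D5:**
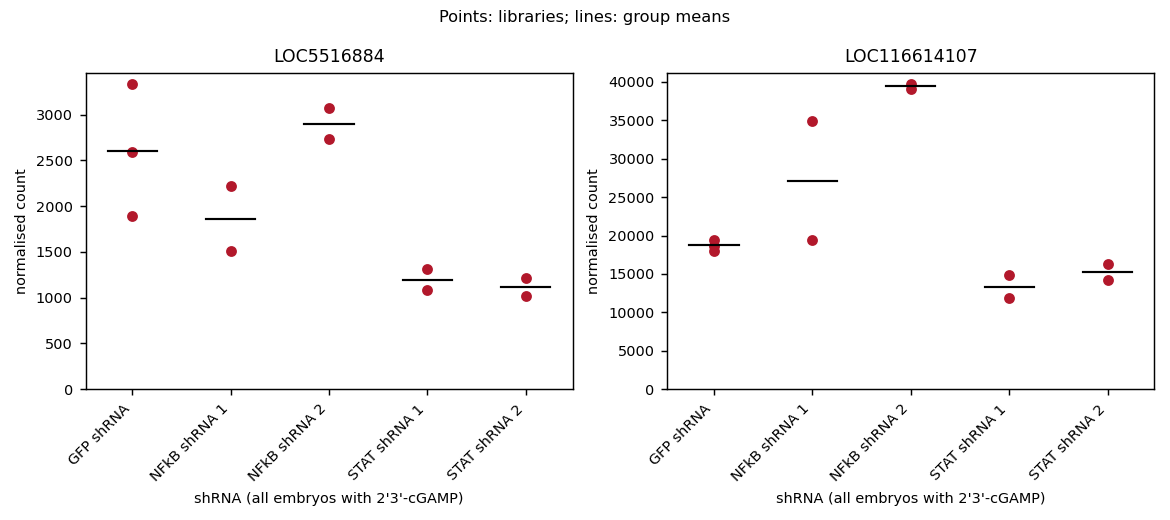
Normalised counts of LOC5516884 and LOC116614107 in the 11 libraries of the NF-kB and STAT experiment, all with 2'3'-cGAMP (points, libraries; bars, group means). In LOC5516884 the 4 STAT shRNA points sit between 1015 and 1308 below all others, and in LOC116614107 the NFkB shRNA 2 points sit at 39735 and 39090.

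With all groups in the fit and no replicate block these 2 genes were the members called between STAT and NFkB shRNAs, both lower with STAT shRNAs. They are 4.65% of the 43, where 2.17% of all tested genes were called (1.25% higher and 0.922% lower). With these 2, 13 of the 43 members had an unadjusted p below 0.05 by limma, against 12.8% of all tested genes. The members' median difference was -0.10 with 17 above 0, against 0.018 over all tested genes. In the comparison set 3 genes were called higher and 10 lower. The groups did not overlap in LOC5505632, higher with STAT shRNAs (3.73% of all tested genes), and in 4 members that were lower (3.19%), LOC5514682 and LOC5522165 besides the 2 called ones. LOC5508555, LOC5511776 and LOC5518667 had higher values with STAT than with NFkB shRNAs, by 0.51, 0.47 and 0.60 on the log2 scale with adjusted p of 0.0779, 0.173 and 0.174 by limma. With both STAT hairpins averaged none of them was above the GFP shRNA level, at -0.28, -0.143 and -0.0383 from it. LOC5511776 and LOC5518667 were above it with STAT shRNA 2, at 0.0986 and 0.178, and below it with STAT shRNA 1, at -0.384 and -0.255. With NFkB shRNAs the 3 genes were at -0.79, -0.62 and -0.63 from the GFP shRNA level, values that the choice of members used. Their differences between STAT and NFkB shRNAs are therefore a description. With library totals made equal all 3 were called.

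Some members lie close together in the genome or next to other genes that 2'3'-cGAMP raised. In the gene order of the reference assembly jaNemVect1.1, LOC116604793 and LOC5522165 have 3 genes between them, and LOC116601202 and LOC116608621 have 7. Of the 114 genes outside the 43 that lie within 2 places of the 37 placed members, 11 (9.65%) passed the thresholds on 2'3'-cGAMP polyps, against 410 of 21260 genes (1.93%) in the polyp table. The second share, unlike the first, includes the 43 genes themselves and genes with no place in the reference. The 11 raised neighbours lie within 2 places of 9 members. LOC5499220, next to LOC116604793, had a log2 difference of 8.35 with 2'3'-cGAMP, and LOC5518711, next to LOC5518667, had 7.41. LOC116602083 lies between LOC5518585 (6.92) and LOC5518586 (5.44). No test was made of this, and whether neighbours share sequence or reads was not tested. Neighbours of other raised genes were not counted, so this is not shown to be particular to the members.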

How the data were processed

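Gene-level signal values, which the labels call normalized counts, were deposited as 3 tables, 1 each for polyps, the STING experiment and the NF-kB and STAT experiment. The submitters' processing notes name FastQC 0.11.9, kallisto 0.46.1 and DESeq2, with no role or order, and the build is not given in the sources used here. Depth in reads was not recovered, so no test for raw counts was run.

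A gene entered a table's test when 2 or more libraries reached 10 normalised counts (18511 in polyps, 20879 and 20058 in the embryo tables), and all 43 members were among them in each table. Values on the log2(value + 1) scale were fitted with limma 3.58.1 in R 4.3.3, with all groups of a table in 1 fit, a variance trend and both hairpins averaged. Two-sided p-values were adjusted (Benjamini-Hochberg) across every tested gene of a table, and a gene was called below 0.05. The fit was tested on simulated data.

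The members, the comparison set and all lists were chosen with earlier results of these data known. Values per library are given for the members with the largest changes or counts and for those called, only the compared value is given for genes next to a threshold, and other members were named after their values were seen. Lists of pathways, cell types and promoter motifs could not be applied, because no product names or sequences were at hand.

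As alternatives the fit was repeated with pseudocounts of 0.5 and 5, without a filter, with a minimum mean of 50, with TMM factors (trimmed mean of M-values), with equal library totals, with the compared groups alone, with robust variances, with the replicate number as a block, with single hairpins, with each library left out in turn and, in the STING experiment, with both libraries with most genes at 0 left out.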

Additional observations from a re-analysis of the deposited data

How the results depend on the processing

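Counts of called members stayed the same in 258 recomputed values and changed by over 1.5 times in 10. The main fit called 0 members in every comparison except STAT against NFkB shRNAs, so most of the unchanged counts were 0 that stayed at 0. They say little about stability. Leaving out 1 library at a time gave 0 to 5 members higher with 3'3'-cGAMP than with c-di-GMP, 0 to 10 higher with STING shRNAs in untreated embryos, 0 to 5 with a smaller response under STING shRNAs, 0 to 1 lower between STAT and GFP shRNAs, and 0 to 1 higher and 2 to 4 lower between STAT and NFkB shRNAs. The largest value of each came without 3'3'-cGAMP library 1, GFP shRNA untreated library 2 (for 10 and 5), GFP shRNA 2'3'-cGAMP library 1, NFkB shRNA 2 library 2 and NFkB shRNA 1 library 2. Between STAT and NFkB shRNAs, equal totals gave 3 members higher and STAT shRNA 1 alone gave 1 lower. LOC116614107 was called under all 19 alternatives (limma's adjusted p 0.000553 to 0.0256), and LOC5516884 under 18 (0.00231 to 0.0497), the exception being STAT shRNA 1 alone (-0.949). The cause was not tested. All these alternatives used NFkB shRNA libraries, which also entered the choice of members. A replicate block called 1 member higher there (LOC5508555, limma's adjusted p 0.0432) and 5 lower, adding LOC5514682 (0.0257), LOC5517640 (0.0319) and LOC5521859 (0.0492), with 400 and 336 of all genes against 251 and 185, and changed no other count of members. With the compared polyp groups alone 38 members were tested and none was called, while calls over all genes went from 13 to 1 higher for 3'3'-cGAMP compared with c-di-GMP (8 under the block), from 10 to 0 higher for 3'3'-cGAMP against untreated, and from 0 to 23 higher and 92 lower for c-di-GMP against untreated. Leaving out 3'3'-cGAMP library 1 gave 110 and 18, and leaving out GFP shRNA untreated library 2 gave 1462 genes higher in untreated embryos and 655 with a smaller response. Single STAT hairpins gave 72 and 74, and 183 and 86, against NFkB shRNAs. The labels give no meaning to shared replicate numbers, and same-numbered deviations correlated from -0.0988 to 0.277, so the numbers were not taken as pairs. All 10 NF-kB and STAT libraries compared were closest to their own number, a hint of pairing from the data there, against 6 of 10 in the other tables. In a group of 2 libraries the deviations from the group mean mirror each other, so these counts are not of independent outcomes. The highest such correlation in the NF-kB and STAT experiment was 0.114. No paired analysis was possible for STING against GFP shRNAs in 2'3'-cGAMP or for the interaction, because the groups share no replicate numbers. With groups of 2 or 3 libraries, differences of 2-fold and many of 4-fold stay unresolved in the STING experiment. In the simulated data, 4-fold changes between STING and GFP shRNAs were recovered in 49.3% of changed genes with 2'3'-cGAMP and 44.8% untreated. For the interaction 20.9% were recovered at 4-fold and 48.5% at 8-fold. At 2-fold the shares were 11.9%, 2.99% and 0% in the same order.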
